A study of Homo sapiens with 8 samples.

Results

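The 10 genes described here prepare peptides for display on MHC class I: the immunoproteasome catalytic subunits PSMB8, PSMB9 and PSMB10, the proteasome activator subunits PSME1 and PSME2, the peptide transporter subunits TAP1 and TAP2, tapasin (TAPBP), its relative TAPBPL, and the trimming peptidase ERAP1. They were selected by gene symbol, and all 10 are among the 61228 gene names in the count tables. RNA was sequenced and counted in H1975 and HCC44, 2 established human lung cancer cell lines that the labels give as wild type. Each line received either the solvent DMSO or ACBI1 for 96 hours, with 2 libraries in each of the 4 groups. ACBI1 is a small-molecule degrader that recruits the VHL ubiquitin ligase to SMARCA2, SMARCA4 and PBRM1, which are subunits of SWI/SNF chromatin remodelling complexes. The labels give its concentration as 1 mM, a unit that is uncertain because degraders are usually used far below it. Nothing in the labels says that the replicates were separate cultures, so p-values measure only the spread between these libraries. Each is 1 cell line, so differences between them compare these lines and not classes of tumour.

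Cells cut cytosolic proteins into peptides with the proteasome, and interferon replaces the catalytic subunits PSMB5, PSMB6 and PSMB7 with PSMB8, PSMB9 and PSMB10 to form the immunoproteasome. PSME1 and PSME2 together form the PA28 ring that opens the proteasome core. The TAP1-TAP2 transporter carries peptides into the endoplasmic reticulum, where ERAP1 trims them and tapasin, with calreticulin and PDIA3, loads them onto class I chains. TAPBPL acts as a second peptide editor outside the loading complex. Tumour cells with low expression of this machinery are known to be seen less well by cytotoxic T cells.

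In GENCODE 29 on GRCh38, the build that the submitters' processing notes call hg38, 4 of the genes lie within 37.8 kb of the MHC region on chromosome 6. They are TAP2 (chr6:32821833-32838780, minus strand), PSMB8 (chr6:32840717-32844703, minus), PSMB9 (chr6:32844136-32859585, plus) and TAP1 (chr6:32845209-32853978, minus). TAPBP lies further along that chromosome (chr6:33299694-33314387, minus). PSME1 (chr14:24136158-24138967, plus) and PSME2 (chr14:24143362-24147570, minus) are close neighbours. PSMB10 (chr16:67934502-67937087, minus), TAPBPL (chr12:6451690-6466517, plus) and ERAP1 (chr5:96760810-96808100, minus) lie on other chromosomes. Exons of other annotated genes covered 34.8% of the exonic bases of PSMB10, 32.3% of those of TAP2 and 20.6% of those of PSMB8, and at most 11.5% in the other 7. The strand setting of the counting is not given in the sources used here, so reads from such stretches cannot be assigned with certainty. For TAP2 the other gene, AL669918.1, lies on the same strand, so no strand setting would separate their reads.

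The promoters were read because many of these genes are known interferon targets. The interferon-stimulated response element was searched in RefSeq promoter windows of GRCh38.p14, each holding 250 bases before and 50 after a start, as its core GAAANNGAA on either strand. It was found for 8 of the 10 genes and for none of PSMB5, PSMB6 and PSMB7. Among all 27305 genes with a window, 9.86% held it in at least 1 window, and 8.11% of the 35116 windows held it. Genes with more windows had more chances to match. With only the 250 bases before the start, 5 of the 10 held it, against 8.41% of all genes. The windows of PSMB9 and TAPBPL held no match. The 30 bases around each match are given 5′ to 3′ in the direction of the gene, with the matched letters in capitals, and TAP1 and TAPBP each hold a pair of overlapping matches.
PSMB10 (chr16:67936852-67936881, minus): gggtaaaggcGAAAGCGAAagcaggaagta
PSMB8 (chr6:32844031-32844060, minus): atctgtggctTTCGCTTTCacttcctcctc
PSME1 (chr14:24136190-24136219, plus): ccctaccgctTTCGCTTTCccttcgcggtg
PSME2 (chr14:24146619-24146648, minus): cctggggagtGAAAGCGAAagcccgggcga
TAP1 (chr6:32853815-32853844, minus): ggccgctTTCGATTTCGCTTTCccctaaat
TAP2 (chr6:32838778-32838807, minus): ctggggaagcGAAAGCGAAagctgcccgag
TAPBP (chr6:33314076-33314105, minus): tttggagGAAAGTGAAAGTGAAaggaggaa
ERAP1 (chr5:96807923-96807952, minus): gggctccactTTCACTTTCggtcctggggg

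PSMB10, PSME2 and TAP2 carry the same 9 letters GAAAGCGAA on the gene's own strand, and PSMB8, PSME1 and the second of the TAP1 matches carry their reverse complement. The matches of PSMB8, PSME1 and ERAP1 lie at or just after the annotated start, which is why the shorter window lost them. A form of the NF-kB site, GGGANTTTC on either strand, was found for TAP1 alone of the 10 genes, against 1.56% of all genes with a window. It is shown because it lies in the same TAP1 window as the interferon element, 72 bases before the start.
TAP1 (chr6:32853757-32853786, minus): gcctgttcctGGGACTTTCcgagagccccg

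A match of letters is not evidence that a factor binds there.

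Each library held 62467286 to 70455517 reads counted in genes. All 10 genes passed the filter on low counts, with 150 to 43700 reads in each library. Values are CPM, each read count over the scaled library total, with TMM factors to correct totals for composition. Calls are at an adjusted p under 0.05 in edgeR's quasi-likelihood fit of all 8 libraries, over 21307 genes. All 7 epithelial markers (EPCAM, CDH1, KRT7, KRT8, KRT18, KRT19, CLDN4) were detected in every library. Their sum was 5435 to 5764 CPM with DMSO and 2519 to 3087 CPM with ACBI1 in H1975, and 963 to 999.9 CPM and 1206 to 1670 CPM in HCC44. The sum of 5 mesenchymal markers, mostly VIM in level, moved in the same directions. It went from 1296 to 1464 CPM down to 639 to 680 CPM in H1975. In HCC44 it went from 509 to 600.4 CPM up to 745 to 1138 CPM. DCN was at 0 throughout. Single markers did not all follow their sums in either line. In H1975 PDGFRB rose from 0.699 and 0.577 CPM to 1.34 and 1.98 CPM. EPCAM overlapped there, at 184 and 158 CPM with DMSO and 171 and 137 CPM with ACBI1. In HCC44 KRT7 rose with its sum from 423 and 459 CPM to 751 and 1122 CPM, and COL1A1 from 89.5 and 71.1 CPM to 200 and 404 CPM. Against their sum, KRT8 fell in HCC44 from 228 and 205 CPM to 146 and 157 CPM, and CLDN4 from 23.4 and 19.9 CPM to 6.91 and 12.2 CPM. The 3 endothelial markers summed to 0.439 to 4.01 CPM. The lung lineage factor NKX2-1 was at 19.2 to 27.5 CPM in H1975 and at most 0.0318 CPM in HCC44. Leukocytes also carry much immunoproteasome, and their 6 markers summed to 0.768 to 3.54 CPM across the libraries, with CD3E and MS4A1 at 0 and PTPRC at most 0.048 CPM. That sum was 2.84 to 3.5 CPM with DMSO and 1.88 to 2.01 CPM with ACBI1 in H1975, and 3.48 to 3.54 CPM and 0.768 to 1.46 CPM in HCC44, most of it CD14. The marker sums thus differed between treatments and between lines, and their part in the results was not tested. In bulk RNA, fewer cells that carry a transcript and less of it per cell cannot be told apart.

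**Figure D1:**
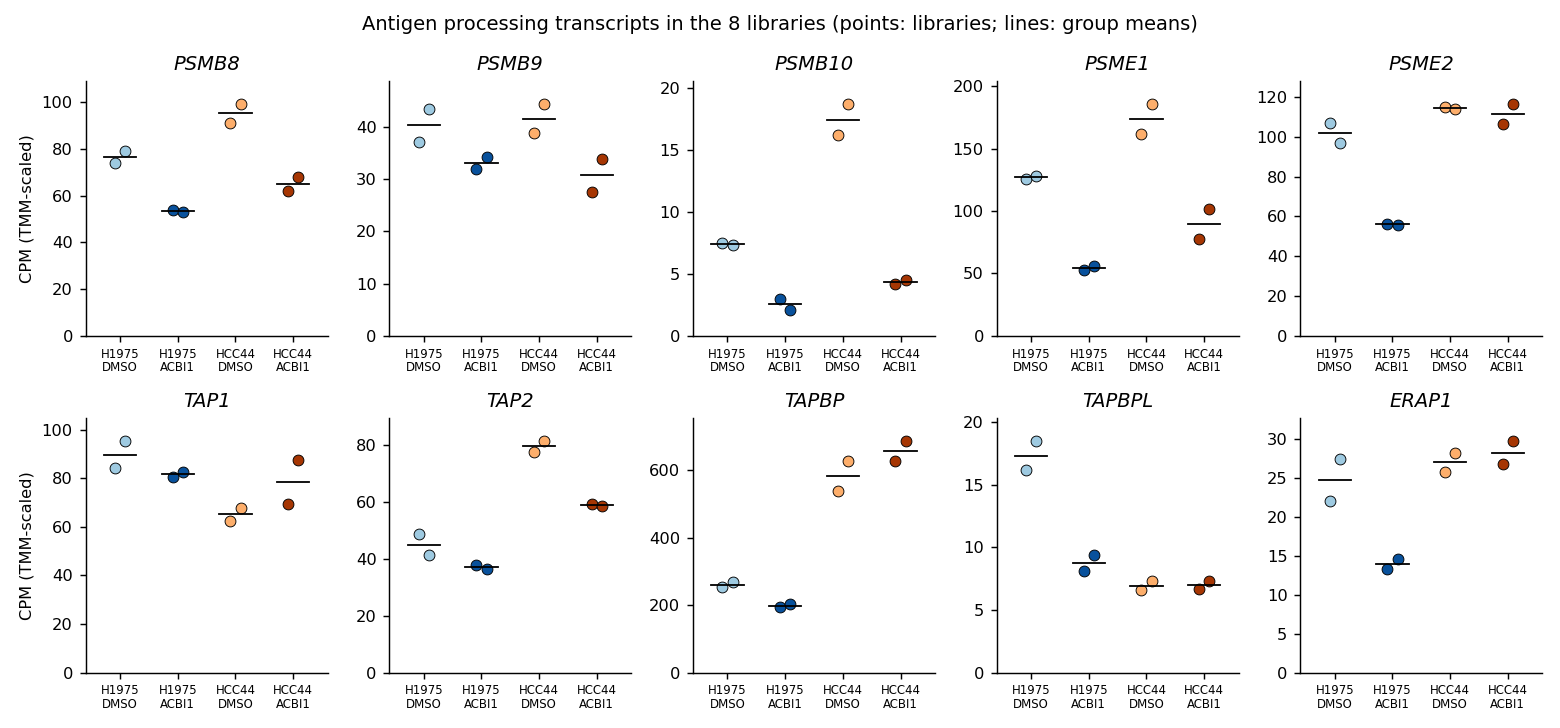
TMM-scaled CPM (y axis, from 0) of the 10 genes in the 8 libraries, by line and treatment (x axis). Points are libraries and lines are group means. PSMB8, PSMB10 and PSME1 are lower with ACBI1 in both lines, whereas PSME2, TAPBPL and ERAP1 are lower in H1975 and level in HCC44.

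Per kilobase of exonic length, PSME1 and TAPBP were the most abundant of the 10 in every group, and PSMB10, ERAP1 and TAPBPL were the lowest 3. In H1975 with DMSO the levels ran from 71.4 CPM per kb for PSME1 through TAPBP (51.6), PSME2 (28.5), PSMB8 (25.6), TAP1 (18.7), PSMB9 (13.1), TAP2 (7.04), TAPBPL (5.43) and PSMB10 (4.01) to 3.12 CPM per kb for ERAP1. No neighbours in that order overlapped between libraries. In HCC44 with DMSO TAPBP led at 115 CPM per kb and PSME1 followed at 97.4. PSME2 and PSMB8 overlapped there at 32 and 31.8 CPM per kb, as did TAP1 (13.6) with PSMB9 (13.5), and PSMB9 with TAP2 (12.4). The lengths come from GENCODE 29 and include every annotated exon, so levels of genes with rare long transcripts are too low.

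In the solvent, the lines differed for 7 of the 10 genes. PSMB8, PSMB10, PSME1, TAP2 and TAPBP were higher in HCC44, and TAP1 and TAPBPL were lower. Of all genes tested, 67.9% were called, 31.6% as higher and 36.4% as lower in HCC44, so the share of 7 in 10 is near the background. The largest was TAPBPL, at 16.1 and 18.5 CPM in H1975 and 6.57 and 7.3 CPM in HCC44, a log2 difference of -1.32 ± 0.16 (SE) with an edgeR adjusted p of 1.925e-05. PSMB10 was higher in HCC44 by 1.23 ± 0.18 and TAPBP by 1.16 ± 0.10 on the log2 scale. The transporter subunits differed in opposite directions. TAP2 was higher in HCC44 by 0.82 ± 0.10 and TAP1 was lower, with a log2 difference of -0.46 ± 0.12. PSMB8 (0.31 ± 0.09) and PSME1 (0.45 ± 0.12) were modestly higher in HCC44. The TAP1 call was lost without H1975 DMSO replicate 2 (-0.32), the PSME1 call without HCC44 DMSO replicate 2 (0.34) and the PSMB8 call without H1975 DMSO replicate 1 (0.26) or HCC44 DMSO replicate 2 (0.25). The PSMB8 call was also lost with library totals in place of TMM factors (0.20). PSMB9, PSME2 and ERAP1 were not called.

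With ACBI1, 7 of the 10 genes fell in H1975 and none rose, where 31.3% of all tested genes were called and 16.7% fell. In HCC44 5 of the 10 fell and none rose, where 34.9% of all tested genes were called and 17.4% fell. PSMB8, PSMB10 and PSME1 fell in both lines. TAPBP, TAPBPL, PSME2 and ERAP1 fell in H1975, and TAP2 and PSMB9 fell in HCC44. TAP1 was called in neither line. Without HCC44 DMSO replicate 2, 3 of the 10 fell in HCC44. The median log2 fold change of the 10 was -0.68 in H1975 and -0.24 in HCC44, and over all tested genes it was -0.014 and 0.006. In H1975 both ACBI1 libraries lay below both DMSO libraries for all 10 genes, a pattern that 34.2% of tested genes showed, with 33.1% showing the opposite. In HCC44 they lay below for 5 genes, a pattern that 32.7% of tested genes showed, and above for TAP1 alone, as for 34.1% of tested genes.

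**Figure D2:**
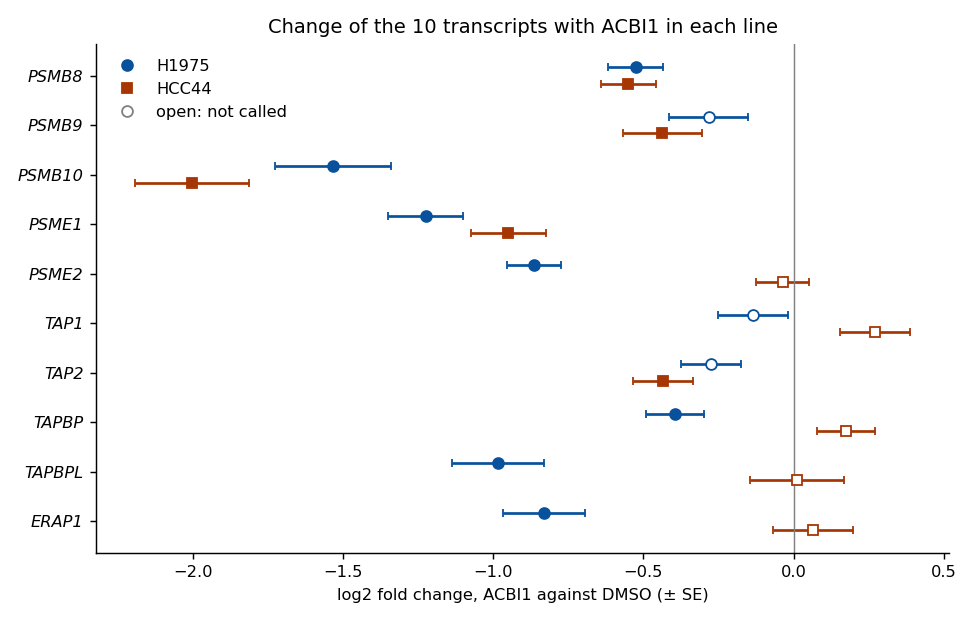
Log2 fold change of ACBI1 against DMSO (x axis) for the 10 genes (y axis) in H1975 (circles) and HCC44 (squares), with bars of 1 SE. Filled symbols passed an adjusted p under 0.05. PSMB10 changed most in both lines, and the lines part at PSME2, TAPBP, TAPBPL and ERAP1.

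PSMB10, the immunoproteasome subunit with trypsin-like activity, had the largest fall of the 10 in each line. In H1975 it was at 7.53 and 7.34 CPM with DMSO and at 3.01 and 2.12 CPM with ACBI1. In HCC44 it was at 16.2 and 18.7 CPM with DMSO and at 4.19 and 4.52 CPM with ACBI1. The groups stood apart in both lines, and the HCC44 libraries with ACBI1 lay below the H1975 libraries with DMSO. The log2 fold change was -1.53 ± 0.19 (SE) in H1975 (edgeR adjusted p 0.0002619) and -2.00 ± 0.19 in HCC44 (edgeR adjusted p 2.903e-05). The lines differed by -0.47 ± 0.27, short of the threshold, so the data show neither a larger nor an equal fall in HCC44. That difference was -0.23 without H1975 ACBI1 replicate 1 and -0.72 without H1975 ACBI1 replicate 2. PSMB10 was counted at 150 to 1194 reads per library, the fewest of the 10 genes.

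PSMB8, the chymotrypsin-like subunit of the immunoproteasome, fell in both lines. It went from 74.2 and 79.4 CPM to 53.7 and 52.9 CPM in H1975, and from 91.3 and 99.2 CPM to 61.9 and 68.1 CPM in HCC44. The log2 fold changes were -0.53 ± 0.09 (edgeR adjusted p 0.001812) and -0.55 ± 0.09 (edgeR adjusted p 0.0009903), and their difference was -0.03 ± 0.13. The antisense transcript PSMB8-AS1, which shares exonic bases with PSMB8, PSMB9 and TAP1, was itself counted at 116 to 575 reads per library and fell as well, with log2 fold changes of -1.01 (H1975) and -1.35 (HCC44). It was examined after its values were seen, and reads that PSMB8 and its antisense partner may have exchanged were not separated.

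PSMB9, the immunoproteasome subunit that replaces PSMB6, was called in HCC44. In H1975 it was at 37.2 and 43.4 CPM with DMSO and at 32 and 34.2 CPM with ACBI1, a log2 fold change of -0.28 ± 0.13 that was not called and was -0.12 without H1975 DMSO replicate 2. In HCC44 it fell from 38.8 and 44.3 CPM to 27.5 and 33.9 CPM, by 0.44 ± 0.13 on the log2 scale (edgeR adjusted p 0.0241). The HCC44 call was lost without HCC44 DMSO replicate 2 (-0.33), without HCC44 ACBI1 replicate 1 (-0.29) and with library totals (-0.35). The log2 difference between these changes, -0.15 ± 0.19, did not pass the threshold.

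**Figure D3:**
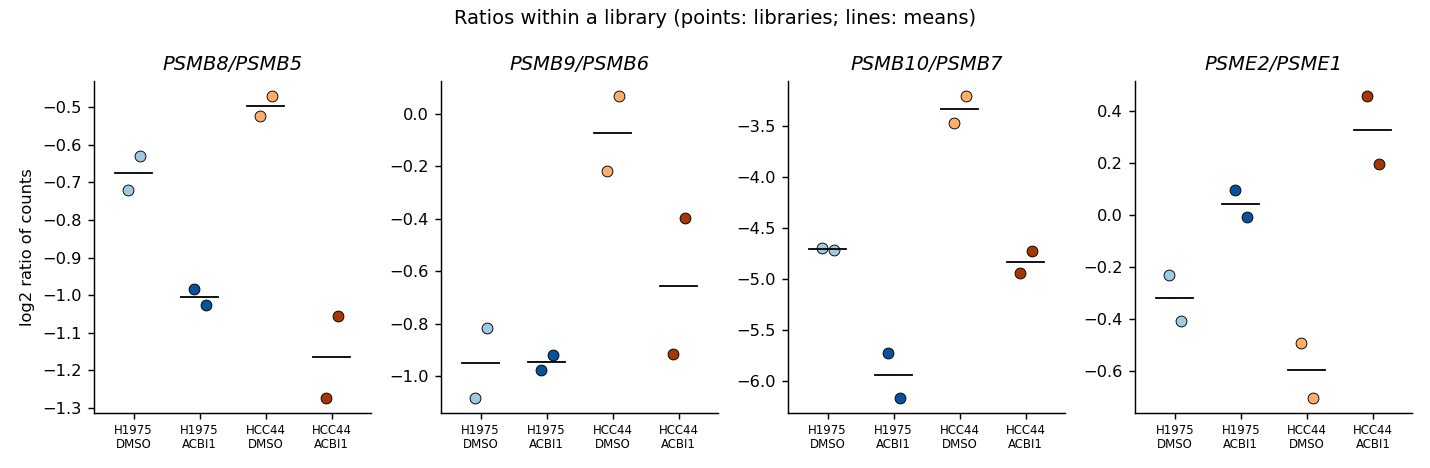
Log2 ratio of counts within each library (y axes, each with its own scale) for the immunoproteasome subunits against the constitutive subunits they replace and for PSME2 against PSME1, by line and treatment (x axis). Points are libraries and lines are means. PSMB8/PSMB5 and PSMB10/PSMB7 are lower with ACBI1 in both lines and PSMB9/PSMB6 in HCC44, whereas PSME2/PSME1 is higher in both.

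Set against the constitutive subunit that each replaces, PSMB8 and PSMB10 still stood lower with ACBI1. This ratio of counts within a library needs no scaling factor. With 2 libraries a group, the smallest exact two-sided permutation p is 0.33, so only values are given. The log2 ratio of PSMB8 to PSMB5 was -0.72 and -0.63 in H1975 with DMSO and -0.98 and -1.03 with ACBI1, and it went from -0.52 and -0.47 to -1.27 and -1.06 in HCC44. That of PSMB10 to PSMB7 went from -4.69 and -4.71 to -5.72 and -6.16 in H1975, and from -3.46 and -3.20 to -4.94 and -4.72 in HCC44. Neither ratio overlapped between treatments in either line. The ratio of PSMB9 to PSMB6 overlapped in H1975, with a mean difference of 0.001 ± 0.19 (SD of the difference). In HCC44 it went from -0.22 and 0.07 to -0.91 and -0.40, a difference of -0.58 ± 0.42 that was -0.32 without HCC44 ACBI1 replicate 1.

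Of the constitutive subunits, PSMB7, the trypsin-like subunit of the standard core, fell in both lines, with log2 fold changes of -0.32 ± 0.08 (H1975) and -0.50 ± 0.08 (HCC44). PSMB6 was at 78.6 and 76.4 CPM with DMSO and 62.9 and 64.7 CPM with ACBI1 in H1975, a log2 fold change of -0.28 ± 0.10 whose adjusted p of 0.0499 lay at the threshold. PSMB5 was called in neither line (-0.20 ± 0.08 and 0.12 ± 0.08), and its sign in H1975 turned with library totals (0.008). The H1975 calls of PSMB6 and PSMB7 were lost with any H1975 library left out, at -0.28 to -0.23 for PSMB6 and -0.32 to -0.26 for PSMB7, and with library totals, at -0.077 and -0.12. That of PSMB6 was also lost with either HCC44 DMSO library left out, with RLE or upper-quartile factors, with either other filter, with non-robust dispersion and with DESeq2.

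The PA28 subunits PSME1 and PSME2, whose genes are neighbours on chromosome 14, fell together in H1975 and parted in HCC44. PSME1 went from 126 and 128 CPM to 52.7 and 56.1 CPM in H1975, with a log2 fold change of -1.22 ± 0.13 (edgeR adjusted p 8.124e-05). In HCC44 PSME1 went from 161 and 185 CPM to 77.8 and 102 CPM, a log2 fold change of -0.95 ± 0.12 (edgeR adjusted p 0.0002171). The HCC44 libraries with ACBI1 lay further apart than those of H1975, yet both were below both DMSO libraries. PSME2 went from 107 and 96.8 CPM to 56.3 and 55.8 CPM in H1975, with a log2 fold change of -0.86 ± 0.09 (edgeR adjusted p 8.562e-05). In HCC44 PSME2 was at 115 and 114 CPM with DMSO and at 107 and 116 CPM with ACBI1, so the groups overlapped. The change there was -0.04 ± 0.09, whose sign turned with library totals (0.054) and with upper-quartile factors (0.014).

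For PSME2 the difference between the lines was called, at 0.83 ± 0.13 on the log2 scale (edgeR adjusted p 0.00168). For PSME1 it was 0.27 ± 0.17 and was not called, except without HCC44 ACBI1 replicate 1 (0.46), and it was 0.07 without HCC44 ACBI1 replicate 2 and 0.175 without HCC44 DMSO replicate 1. Within a library, the log2 ratio of PSME2 to PSME1 went from -0.23 and -0.41 to 0.10 and -0.01 in H1975, and from -0.49 and -0.70 to 0.46 and 0.19 in HCC44. Neither line's groups overlapped. This pair was picked after its values were seen.

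TAP1, a subunit of the peptide transporter, had the smallest change in H1975. It was at 84.1 and 95.4 CPM with DMSO and at 80.7 and 82.8 CPM with ACBI1, a log2 fold change of -0.14 ± 0.12 that became 0.068 with library totals and 0.009 without H1975 DMSO replicate 2. In HCC44 it was at 62.5 and 67.8 CPM with DMSO and at 69.6 and 87.7 CPM with ACBI1, a log2 fold change of 0.27 ± 0.12. TAP1 was called as risen in HCC44 with library totals (0.36), with upper-quartile factors (0.32) and without HCC44 ACBI1 replicate 1 (0.43), the lower of the ACBI1 libraries, and it was 0.095 without HCC44 ACBI1 replicate 2. The lines differed by 0.41 ± 0.17, a value called only without that same library (0.57) among the left-out libraries, and it was 0.23 without HCC44 ACBI1 replicate 2 and 0.26 without H1975 DMSO replicate 2.

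TAP2, the partner of TAP1, was at 48.6 and 41.3 CPM with DMSO and at 37.8 and 36.5 CPM with ACBI1 in H1975, a log2 fold change of -0.275 ± 0.10 that was not called and was -0.16 without H1975 DMSO replicate 1. In HCC44 it fell from 77.5 and 81.4 CPM to 59.2 and 58.4 CPM, by 0.43 ± 0.10 on the log2 scale (edgeR adjusted p 0.006375). That call was lost without HCC44 DMSO replicate 2 (-0.40). The lines differed by -0.16 ± 0.14, short of the threshold. In HCC44 the transporter subunits therefore stood in another proportion after ACBI1. The log2 ratio of TAP2 to TAP1 counts was 0.31 and 0.26 with DMSO and -0.23 and -0.59 with ACBI1 there, and it overlapped between treatments in H1975. This ratio, too, was picked after its values were seen, and with 2 libraries a group it has no test.

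TAPBP, which bridges the transporter and the class I chain, went from 253 and 268 CPM to 193 and 204 CPM in H1975, with a log2 fold change of -0.39 ± 0.10 (edgeR adjusted p 0.0111). In HCC44 it was at 538 and 628 CPM with DMSO and at 628 and 688 CPM with ACBI1, with DMSO replicate 2 and ACBI1 replicate 1 level and a log2 fold change of 0.17 ± 0.10 that was not called. It was 0.062 without HCC44 DMSO replicate 1, 0.29 without HCC44 DMSO replicate 2 and 0.11 without HCC44 ACBI1 replicate 2. The H1975 fall was not called with library totals (-0.19), under which the HCC44 value was called as risen (0.27). The H1975 call was also lost without DMSO replicate 2 (-0.30), ACBI1 replicate 1 (-0.32) or ACBI1 replicate 2 (-0.41). The lines differed by 0.57 ± 0.14 (edgeR adjusted p 0.0167). That call was lost without H1975 DMSO replicate 2 (0.47), H1975 ACBI1 replicate 1 (0.49) or 2 (0.58), or HCC44 DMSO replicate 1 (0.46).

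TAPBPL, the tapasin-related peptide editor, was at 16.1 and 18.5 CPM with DMSO and at 8.13 and 9.38 CPM with ACBI1 in H1975. The log2 fold change was -0.985 ± 0.15 (edgeR adjusted p 0.0009285). In HCC44 TAPBPL was already lower with DMSO, at 6.57 and 7.3 CPM, and stayed at 6.71 and 7.29 CPM with ACBI1. With ACBI1 the H1975 level thus came near that of HCC44. The HCC44 change was 0.01 ± 0.16, and the lines differed by 1.00 ± 0.22 (edgeR adjusted p 0.0106). The call of that difference was lost without H1975 DMSO replicate 2 (0.84) or H1975 ACBI1 replicate 1 (0.86).

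ERAP1, the aminopeptidase that trims peptides to class I length, went from 22.1 and 27.5 CPM to 13.3 and 14.6 CPM in H1975, with a log2 fold change of -0.83 ± 0.14 (edgeR adjusted p 0.001229). In HCC44 it was at 25.8 and 28.3 CPM with DMSO and at 26.8 and 29.8 CPM with ACBI1, with overlapping groups and a log2 fold change of 0.07 ± 0.13. In the solvent the ERAP1 levels of the lines overlapped, with a log2 difference of 0.12 ± 0.13, and differed in the change with ACBI1 by 0.90 ± 0.19 (edgeR adjusted p 0.00926).

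The change with ACBI1 thus differed between the lines for TAPBP, TAPBPL, PSME2 and ERAP1. In all 4 it was more positive in HCC44, where 10.2% of all tested genes were called in that direction, and for none of the 10 was it called more negative, as it was for 8.4% of all genes. With a library left out the number ranged from 2 to 6. It was 2 without H1975 DMSO replicate 2 and 2 without H1975 ACBI1 replicate 1, and 6 without HCC44 ACBI1 replicate 1.

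**Figure D4:**
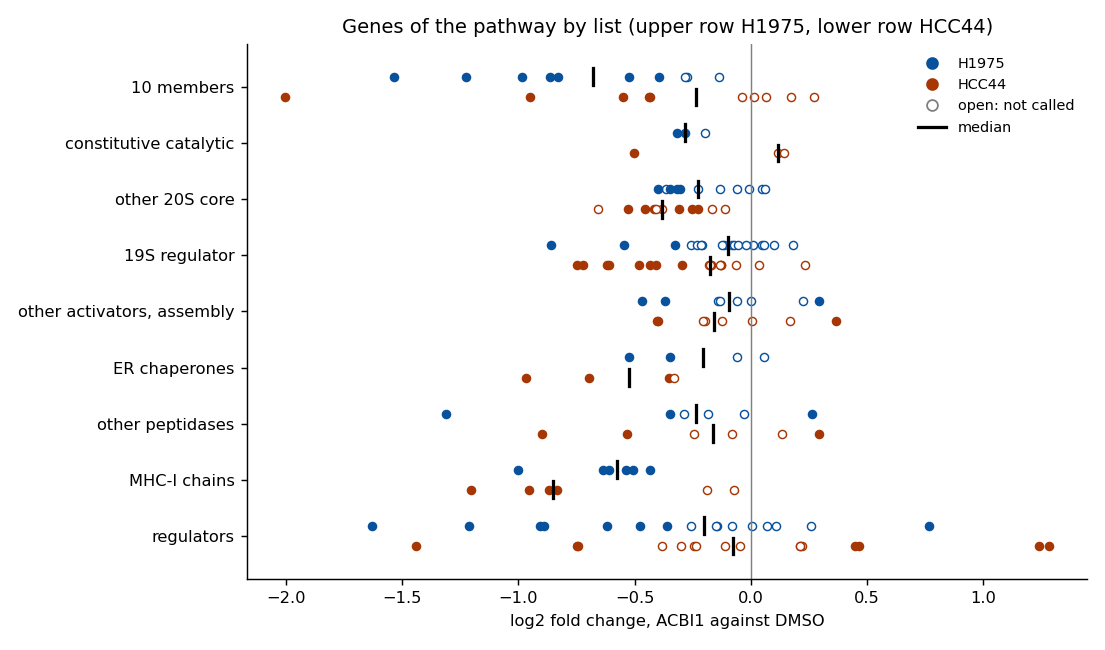
Log2 fold change of ACBI1 against DMSO (x axis) for each tested gene of the 10 and of 8 further lists of the pathway (y axis), with H1975 in the upper and HCC44 in the lower row of each list. Filled points passed an adjusted p under 0.05 and black bars are medians. The MHC class I chains lie below 0 in both lines.

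Of 11 other subunits of the 20S core, which forms the chamber where proteins are cut, 4 fell and none rose in H1975, and 6 fell and none rose in HCC44. PSMA3 fell in both lines (-0.40 ± 0.10 and -0.53 ± 0.10), and its H1975 call was lost with any H1975 library left out (-0.38 to -0.36 in those 4 fits) and with library totals (-0.20). Of 18 subunits of the 19S regulator, which recognises ubiquitin-tagged proteins, 3 fell in H1975 and 8 fell in HCC44, and none rose in either. These counts, and those of the lists that follow, stand beside the 16.7% of all genes that fell in H1975 and the 17.4% in HCC44, and 3 of 18 is at that background. PSMD2, a scaffold of that regulator, fell in both lines, by 0.86 ± 0.10 and 0.72 ± 0.10. PSMD1 fell in H1975 by 0.54 ± 0.10 and was not called in HCC44 (0.23 ± 0.10), and PSMD12 fell in HCC44 by 0.75 ± 0.10. The list medians of the core and the regulator were -0.23 and -0.10 in H1975 and -0.38 and -0.18 in HCC44. Of 8 other activators, inhibitors and assembly chaperones, 2 fell and 1 rose in each line. Among them PSME4, an activator found in nuclei, fell by 0.47 ± 0.09 in H1975 and by 0.40 ± 0.09 in HCC44, and the HCC44 call was lost without HCC44 DMSO replicate 2 (-0.33).

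Among the other trimming peptidases 2 of 6 fell and 1 rose in each line. ERAP2, the neighbour and partner of ERAP1, fell in H1975 by 1.31 ± 0.13 (edgeR adjusted p 7.77e-05) and in HCC44, by 0.90 ± 0.13 (edgeR adjusted p 0.000403). The ERAP2 changes in the lines differed by 0.41 ± 0.18, which did not pass the threshold. NPEPPS, a cytosolic aminopeptidase, fell in H1975 (-0.35 ± 0.08) and HCC44 (-0.53 ± 0.08). Its H1975 call was lost with library totals (-0.14) and without H1975 DMSO replicate 2 (-0.30) or either H1975 ACBI1 library (-0.34 and -0.29). Of the 4 chaperones of the endoplasmic reticulum, 2 fell in H1975 and 3 in HCC44. PDIA3, the disulfide isomerase of the loading complex, fell by 0.53 ± 0.08 and 0.70 ± 0.08. Calnexin (CANX), which holds newly made class I chains, fell in H1975 (-0.35 ± 0.10) and HCC44 (-0.97 ± 0.10). Its H1975 call was lost with library totals (-0.15) and without H1975 DMSO replicate 2 (-0.20), ACBI1 replicate 1 (-0.235) or ACBI1 replicate 2 (-0.41).

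Of 6 tested MHC class I chains, on which the peptides are loaded, 6 fell in H1975 and 4 in HCC44, with medians of -0.57 and -0.85. B2M, the shared light chain, went from 621 and 620 CPM to 310 and 310 CPM in H1975 and from 515 and 641 CPM to 297 and 335 CPM in HCC44. HLA-E (-0.07) and HLA-F (-0.19), named after their values were seen, were not called in HCC44. HLA-C fell by 0.64 ± 0.12 and 0.95 ± 0.12 on the log2 scale, and HLA-B by 0.61 ± 0.13 and 1.20 ± 0.13. The H1975 call of HLA-B was lost without H1975 DMSO replicate 2 (-0.39) or ACBI1 replicate 1 (-0.46). HLA-G did not pass the filter on low counts. The HLA chains are similar in sequence to each other, so the sharing of reads among them leaves the HLA counts uncertain.

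Of 16 regulators, 7 fell and 1 rose in H1975, and 3 fell and 4 rose in HCC44, where 14.6% and 17.5% of all tested genes rose. The 3 of 16 that fell in HCC44 are near the 17.4% of all genes that fell there. STAT2 fell in both lines, by 1.63 ± 0.175 and 0.75 ± 0.17, and its HCC44 call was lost without HCC44 ACBI1 replicate 2 (-0.58). IRF9 fell in H1975 by 1.21 ± 0.31, a call lost without H1975 DMSO replicate 1 (-0.65) or ACBI1 replicate 2 (-0.97). IFNAR2 rose in HCC44 by 1.24 ± 0.15. Exons of other annotated genes covered 48.4% of the exonic bases of IRF9 and 83.25% of those of IFNAR2. IRF1, a transcription factor that binds the interferon element, fell in H1975 by 0.91 ± 0.11 and was at -0.24 ± 0.10 in HCC44, which was not called. The lines differed in the change of IRF1 by 0.66 ± 0.15 (edgeR adjusted p 0.0114). The IRF1 difference was not called without H1975 DMSO replicate 2 (0.51) or H1975 ACBI1 replicate 2 (0.62). Exons of other annotated genes covered 22% of the exonic bases of IRF1. NLRC5, the coactivator of class I promoters, fell in both lines, from 62.2 and 51.1 CPM to 34 and 27.2 CPM in H1975 and from 20.9 and 21.5 CPM to 6.71 and 8.92 CPM in HCC44. Its log2 fold changes were -0.89 ± 0.16 and -1.44 ± 0.17. RFX5, a DNA-binding partner of NLRC5, rose in both, by 0.77 ± 0.13 and 1.28 ± 0.13.

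The MHC class II genes also held genes that fell. Of 6 tested, 3 fell in each line and none rose. These were HLA-DRA (chr6:32439842-32445046), CD74 on chromosome 5 and CIITA on chromosome 16. HLA-DMA and HLA-DMB (at most 1.435 CPM), named after their values were seen, lie closer to the TAP and PSMB genes and were called in neither line. HLA-DRA fell by 2.11 ± 0.29 in H1975, to 0.519 and 0.354 CPM, and by 1.52 ± 0.22 in HCC44. CD74 fell by 0.81 ± 0.15 and 0.56 ± 0.15. Its HCC44 call was lost without HCC44 DMSO replicate 1 (-0.59) or 2 (-0.54) or HCC44 ACBI1 replicate 2 (-0.49). CIITA, the coactivator of class II promoters, fell by 1.31 ± 0.15 in H1975 and by 2.12 ± 0.16 in HCC44.

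Averaged over the 10 genes and centred within each line, log2 CPM lay at 0.305 and 0.375 in the H1975 DMSO libraries and at -0.35 and -0.33 with ACBI1. In HCC44 the same mean lay at 0.12 and 0.26 with DMSO and at -0.28 and -0.10 with ACBI1. The 5 genes outside the lists whose centred log2 CPM followed this mean most closely over the 8 libraries were IQGAP1, PARP14, CHP1, MAMLD1 and HIVEP1, with Pearson r of 0.992 to 0.995. These libraries share the treatment contrast and the DMSO libraries, so the r describes likeness only. Of the 10 genes themselves, each of which is part of the mean it is compared with, PSME1 was closest (r = 0.986) and TAP1 farthest (r = 0.108).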

How the data were processed

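The deposited values are raw counts of reads per gene, 1 table per library, with the summary rows of htseq-count. TopHat2 2.1.1, HTSeq 0.11.0 and the build hg38 are named per the submitters' processing notes; annotation and strand setting are not given in the sources used here. Summary rows (14.3 to 15.8% of each table) were left out. Genes were kept by filterByExpr and scaled with TMM factors. With 1 mean for each group, all 8 libraries entered a single fit (4 residual degrees of freedom) in edgeR 4.0.16 in R 4.3.3, robust quasi-likelihood F-tests were two-sided, and p-values were adjusted by Benjamini-Hochberg over all 21307 genes. Each SE is the log2 fold change over √F.

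The 10 genes and the 9 further lists were chosen with earlier results of these data known, and 1 regulator gene and 1 further promoter motif are not reported here. Other genes were drawn by a rule: up to 3 called genes with the largest change per list and line, PSMB5, PSMB6, PSMB7, B2M, NLRC5 and IRF1 always, and the 5 genes most like the mean of the 10 (mean of at least 5 CPM, 0.5 CPM added before the log). Not every gene it gave is described. It also gave PSMA4, PSMA5, PSMB2, PSMD6, POMP, PSMF1, PSMG3, CALR and THOP1, whose values are not given here. Replicates differed by more than sampling noise (chi-square per degree of freedom 24.1 to 48.7). The fit was also run on simulated counts with known changes in H1975 with ACBI1 alone, and its outcome is not given here. Those counts held far fewer changed genes than these data, so that run does not test how the scaling acted here. Alternatives were DESeq2 1.42.0, RLE and upper-quartile factors, library totals, no filter, 1 CPM in 2 libraries, each line alone, non-robust dispersion, the replicate number as a block, an adjusted p under 0.01, and each library left out.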

Additional observations from a re-analysis of the deposited data

Results flagged for a closer look

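Each gene here is given because a test of the difference itself found that its change with ACBI1 differed between the lines (log2 difference, HCC44 minus H1975, with edgeR's adjusted p under 0.05). Among the 10 genes these were TAPBP (0.57 ± 0.14), TAPBPL (1.00 ± 0.22), PSME2 (0.83 ± 0.13) and ERAP1 (0.90 ± 0.19). Among the other named genes of the pathway the change was more positive in HCC44 for PSMD1 (0.78 ± 0.14), STAT2 (0.88 ± 0.24), IRF1 (0.66 ± 0.15) and IFNAR2 (0.98 ± 0.21). It was more negative in HCC44 for PSMD12 (-0.51 ± 0.14), CANX (-0.62 ± 0.14), HLA-B (-0.59 ± 0.18) and CIITA (-0.81 ± 0.21). Outside the naming rule, the difference was also called for JAK1 (0.84 ± 0.15), IFNGR2 (0.705 ± 0.15) and PSMC4 (-0.555 ± 0.17). For PSMC4 the edgeR adjusted p was 0.0468. Over all tested genes 18.6% were called for this difference, 10.2% as more positive and 8.4% as more negative in HCC44. Exons of other annotated genes covered 83.25% of the exonic bases of IFNAR2, 23.4% of those of CIITA and 22% of those of IRF1. Reads from such stretches cannot be assigned with certainty. Leaving out 1 library ended the calls of TAPBP and TAPBPL for the libraries named above with their values. It also ended those of PSMD12 (-0.563 to -0.399 in the 5 fits without a call), CANX (-0.554 without H1975 ACBI1 replicate 2, -0.583 without HCC44 DMSO replicate 2), HLA-B (-0.61 to -0.434, 5 fits), STAT2 (0.654 to 0.9, 5 fits, and also 0.77 with library totals and 0.863 with upper-quartile factors), IRF1 (0.514 without H1975 DMSO replicate 2, 0.624 without H1975 ACBI1 replicate 2) and CIITA (-0.868 to -0.745, 5 fits). With 2 libraries a group, no group was large enough to examine for a library far from the others.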

How the results depend on the processing

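Of 700 recomputed values of the 10 genes, 648 kept their direction and their side of the threshold, 24 lost a call, 11 gained a call and 17 turned sign, all 17 in values that were not called. Library totals shifted the median of all genes to 0.18 in H1975, 0.093 in HCC44 and -0.199 for the lines in the solvent. The number of the 10 that rose in HCC44 was 2 with library totals and 1 with upper-quartile factors. At an adjusted p under 0.01 the lines differed for 2. With each library left out, 6 to 7 of the 10 fell in H1975, 3 to 5 fell and 0 to 1 rose in HCC44, 2 to 6 differed between the lines, 3 to 5 were higher in HCC44 DMSO and 1 to 2 lower. Over all genes, the calls numbered 6663 in H1975 and 3690 to 7161 with a library left out, 7438 and 4945 to 7342 in HCC44, and 3967 and 2341 to 4134 for the difference. Each line fitted alone gives no difference between the lines, so that setting was not run for it. Only 5 of the 10 held the interferon element in the bases before the start.

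Signs that turned were those of TAP1 in H1975 (0.068 with library totals, -0.229 to 0.009 with each library left out) and PSME2 in HCC44 (0.054 with library totals and 0.014 with upper-quartile factors, -0.1 to 0.027 with each library left out). They were also those of PSMB9 between the lines in the solvent (-0.025 and -0.071 with the same scalings, -0.07 to 0.212 with each library left out) and PSMB5 in H1975 (0.008 with library totals). With each library left out, the sign also turned for TAPBPL in HCC44 (-0.067 to 0.094), ERAP1 in HCC44 (-0.014 to 0.143) and in the solvent (-0.034 to 0.341), and the PSMB8 difference (-0.127 to 0.046). The causes were not tested.

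With the replicate number as a replicate block, 9 of the 10 fell in H1975, since TAP2 (-0.27) and PSMB9 (-0.28) were called, 2 rose in HCC44 (TAP1 0.263 and TAPBP 0.177), and the TAP1 difference was called (0.396). PSMB5 in H1975 (-0.195) and IRF1 in HCC44 (-0.246) were called as well. Over all genes the block gave 9103 calls in H1975 against 6663, and 6358 differences between the lines against 3967. Deviations of same-numbered libraries correlated at 0.374 in H1975 and 0.109 in HCC44, and no label says whether equal numbers mark a common batch, so a pairing is neither shown nor absent.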
